A study of Mus musculus with 45 samples.

Results

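The mitochondrial ribosomal protein genes were followed through mouse heart development. They were taken as every gene whose symbol is Mrpl or Mrps followed by a number and at most 1 letter, whatever its values. Of 18193 genes measured, 76 met this rule, 47 named for the large subunit of the mitochondrial ribosome (Mrpl) and 29 for the small subunit (Mrps). The RefSeq annotation holds 78 such symbols, and the other 2, Mrpl30 and Mrpl53, were measured only by probe sets shared with another gene and are not analysed here. Symbols do not always give the place in the particle: the products of Mrps30 and Mrps18a are large-subunit proteins, and that of Mrps36 is now assigned to the 2-oxoglutarate dehydrogenase complex.

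RNA from 45 samples was hybridised to Affymetrix arrays, with 3 arrays in each of 15 groups. The groups were cultured R1 embryonic stem cells (ESC), entire embryos on embryonic day 7.5 (E7.5), E8.5 heart tubes, and the left and the right ventricle, dissected apart, at 6 stages. These were E9.5 and E12.5, E14.5 and E18.5, the third day after birth (day 3) and adulthood. All tissue came from wild-type CD1 mice with no treatment. Replicates were described as biological. From E7.5 to E9.5 each pooled 30 to 50 hearts or embryos, at E12.5 and E14.5 10 to 20, and at E18.5 3 to 5. At day 3 and in the adult 1 heart made a replicate. Hearts of the last 2 stages were frozen and pulverised before extraction.

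Mitochondria carry their own ribosomes, which translate the few proteins encoded in mitochondrial DNA, all of them core subunits of the respiratory chain and of ATP synthase. The ribosomal RNAs of this particle come from the mitochondrial genome, but its proteins are encoded in the nucleus, made in the cytosol and imported. The heart depends on oxidative metabolism, and inherited defects in several of these genes, among them MRPL3, MRPL44 and MRPS22 in humans, cause cardiomyopathy.

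Values are log2 expression values made with RMA, so that a difference of 1 is a 2-fold difference. A level is that of the gene's probe set with the highest mean, and levels of different genes are not compared. All 76 members lay above the median of all gene values in at least 3 arrays, against 11180 of 18193 genes. A gene is said to have risen or fallen where its adjusted p in limma was below 0.05 (Benjamini-Hochberg over all genes, two-sided), and differences are given ± SE. Stages were compared over 27 values, after averaging left and right ventricles of the same number.

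The labels were checked against marker lists. The mean of 6 stem cell markers was 12.2 in ESC, and the mean of 8 heart muscle markers, Myh6, Tnnt2 and Nkx2-5 among them, was 5.55 to 6.05 in ESC and E7.5 embryos and 12.4 to 13.4 in every heart sample. In 9 arrays the mean of a list of another cell type or tissue lay over 1.5 above the other replicates of the group. They included a heart tube sample high in visceral endoderm and liver genes (by 3.28), left ventricles at E14.5 and E18.5 high in the same list (by 2.31 and 2.61), and 2 adult ventricles high in atrial muscle genes (by 2.21 and 4.13). Counts without these 9 arrays are given where they differ by more than 1.5 times. As these are pieces of tissue, fewer cells of a type and less RNA per cell cannot be told apart.

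The members as a set did not climb steadily with heart development. Their median level, each gene set against its own mean over 45 arrays, was -0.12 ± 0.02 (SD, n = 3) in ESC and -0.19 ± 0.06 in E7.5 embryos, and was lowest in E8.5 heart tubes, at -0.34 ± 0.07. At E9.5 it stood at 0.03 ± 0.10 in the left and 0.06 ± 0.08 in the right ventricle. At E12.5 it was lower in both, at -0.26 ± 0.06 and -0.23 ± 0.12. The ventricles then stood apart at E14.5, with -0.15 ± 0.08 on the left and 0.09 ± 0.02 on the right. From E18.5 the median was above 0, at 0.26 ± 0.19 and 0.17 ± 0.07, and at day 3 at 0.21 ± 0.03 and 0.22 ± 0.10. The adult ventricles had 0.14 ± 0.13 and 0.05 ± 0.13. Of their 6 arrays 3, between -0.07 and 0.03, lay below every array of E18.5 and day 3, which ran from 0.04 to 0.40, and the other 3 lay among them. The lower adult level depended on the scaling. The median difference of the members from day 3 to the adult was -0.07, but 0.14 with arrays scaled to 13 housekeeping genes.

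**Figure D1:**
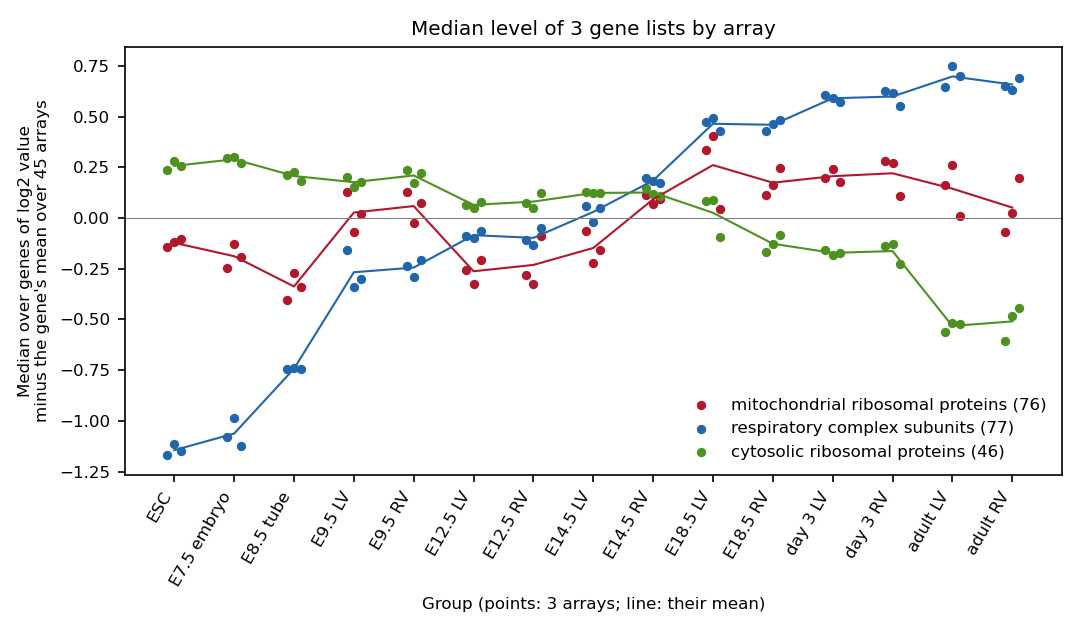
Median level of 76 mitochondrial ribosomal protein genes, 77 nuclear genes of respiratory complex subunits and 46 cytosolic ribosomal protein genes (vertical axis: log2 value minus the gene's mean over 45 arrays) in each of 15 groups. Points are the 3 arrays of a group and the line joins their means; the mitochondrial ribosomal median is lowest in E8.5 heart tubes, at -0.34, while the respiratory median is lowest in ESC.

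Single genes spread around this course. By stage mean, 27 of 76 members were lowest at E8.5, 21 in ESC, 14 at E12.5, 8 at E7.5, 5 in the adult and 1 at E14.5. The highest stage was day 3 for 20 members, the adult for 17, ESC for 15, E18.5 for 13, E9.5 for 7 and E7.5 for 4. All 76 passed the F-test for any difference between stages, where 90.3% of all genes did. The range of a member's 15 group means had a median of 0.92, against 1.25 for all genes, 0.96 for cytosolic ribosomal proteins and 2.00 for respiratory subunits.

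**Figure D2:**
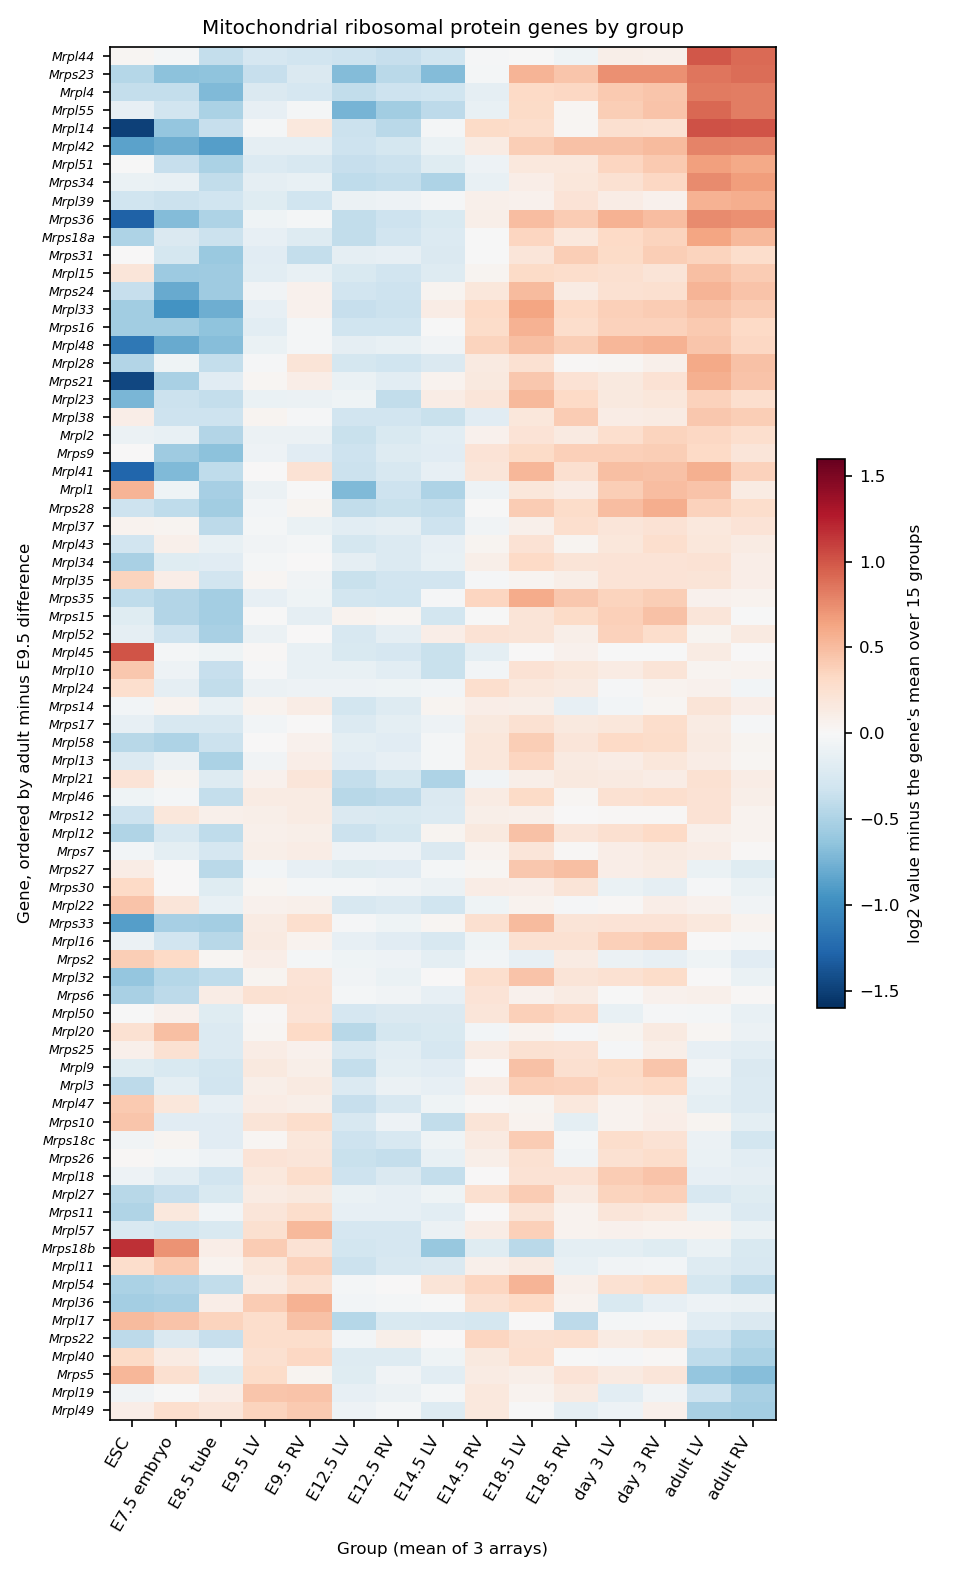
Level of each of 76 members (rows) in each of 15 groups (columns, mean of 3 arrays), as log2 value minus the gene's mean over the groups, red above and blue below. Rows are ordered by the difference between adult and E9.5 ventricles, with Mrpl44 at the top and Mrpl49 at the bottom. A parting of the rows in the adult columns follows from this order. Blue prevails in the columns of E8.5 and E12.5.

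Start-site sequences of the members were described too, and a link between them and this course was not tested. RefSeq (GRCm38.p6) gave 73 promoters for 67 of 76 members, each from 250 bases before to 50 after the start site. Either strand was searched for the core letters of 3 factors known for nuclear genes of mitochondria. GCATGCG (NRF1), whose letters overlap their own reverse complement, was in 11.0% of member promoters and in 3.58% of all 32851 promoters. CCGGAAG (ETS factors such as GABP) was in 34.2% and 8.86%, and AAGATGG (YY1) in 17.8% and 6.34%. At least 1 of the 3 was in 50.7% of member promoters and 17.3% of all, while TATAAA was in 6.85% and 13.6%. All promoters were the only background, and promoters of genes with levels like those of the members were not compared. A match is a run of letters, not a bound site.

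The 120 bases before the start site are shown for 7 members, chosen for their values or for their matches, with the matched letters in capitals. The share with a match among these 7 is therefore not that of all members. Mrpl33 and Mrpl17 had the largest rise and fall of the steps around E9.5, though probe sets of Mrpl17 were called in opposite directions. Mrps22, Mrps18a and Mrpl36 carry ETS or YY1 matches shortly before the start. Mrpl44 and Mrpl14, with the largest net rise and the widest range, have no match in the whole window. The 7 stretches lie at chr5:31613831-31613950 (plus strand), chr7:105811088-105811207 (minus), chr9:98601680-98601799 (minus), chr17:46110884-46111003 (plus), chr13:73330889-73331008 (plus), chr1:79775898-79776017 (plus) and chr17:45686229-45686348 (plus), in the order printed.
Mrpl33: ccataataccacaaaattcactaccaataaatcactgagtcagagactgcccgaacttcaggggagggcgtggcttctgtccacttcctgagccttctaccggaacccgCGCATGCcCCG
Mrpl17: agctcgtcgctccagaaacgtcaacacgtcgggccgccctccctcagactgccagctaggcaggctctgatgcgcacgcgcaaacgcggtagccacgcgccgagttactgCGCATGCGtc
Mrps22: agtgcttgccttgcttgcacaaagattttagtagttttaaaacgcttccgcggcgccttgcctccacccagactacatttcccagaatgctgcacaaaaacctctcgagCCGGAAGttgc
Mrps18a: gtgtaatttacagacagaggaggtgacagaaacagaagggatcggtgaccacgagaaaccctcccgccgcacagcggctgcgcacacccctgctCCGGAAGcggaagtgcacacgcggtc
Mrpl36: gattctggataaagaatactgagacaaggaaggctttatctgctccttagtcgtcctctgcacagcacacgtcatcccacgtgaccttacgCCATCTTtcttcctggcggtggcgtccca
Mrpl44: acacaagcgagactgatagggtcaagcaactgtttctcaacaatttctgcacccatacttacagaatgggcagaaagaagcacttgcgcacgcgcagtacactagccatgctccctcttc
Mrpl14: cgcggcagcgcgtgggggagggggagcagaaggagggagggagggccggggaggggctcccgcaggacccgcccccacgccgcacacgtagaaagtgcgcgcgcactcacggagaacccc
The NRF1 letters of Mrpl33 begin 11 bases before its start site, and an ETS match begins 3 bases before it and runs on beyond the printed stretch. In Mrpl17 the NRF1 letters, read on both strands, begin 10 bases before the start, in Mrps22 the ETS letters 11 bases, in Mrps18a 26 bases, and in Mrpl36 the YY1 letters, on the other strand, 29 bases before it.

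Between ESC and E7.5 embryos calls also went both ways, at shares near those of all genes. Of the members 16 rose and 22 fell, while 24.3% of all genes rose and 25.2% fell (49.4% in all). The median difference was -0.03. Which direction was the more frequent depended on the processing, since 24 rose and 15 fell with arrays scaled to 13 housekeeping genes, and 21 rose and 16 fell with probe sets averaged. Mrps21, a small-subunit protein with a bacterial counterpart, was 9.37, 9.41 and 9.40 in ESC and 10.29, 10.46 and 10.23 in embryos, a rise of 0.93 ± 0.07 (adjusted p = 2.29e-10 in limma). No array of 1 group reached the other. Mrpl14, which lies at the contact between the subunits, rose by 0.87 ± 0.14, and Mrps11 by 0.65 ± 0.10. The largest fall was that of Mrpl45, a protein without bacterial counterpart near the exit of the nascent chain, from 11.37, 11.29 and 11.37 to 10.24, 10.29 and 10.38. Its difference was -1.04 ± 0.06 (adjusted p = 5.73e-13 in limma), and at later stages its level lay between 9.83 and 10.57. Mrpl15 fell by 0.79 ± 0.07 and Mrps10 by 0.63 ± 0.13. Probe sets of Mrpl1, Mrpl35, Mrpl47, Mrpl51 and Mrps5 were called in opposite directions here. The visceral endoderm and liver list went from sample means of 4.97 to 5.08 in ESC to 11.93 to 12.87 in embryos. Its part was not tested, and stage, source and culture cannot be told apart in this comparison.

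From E7.5 embryos to E8.5 heart tubes 29 members fell and 5 rose, with a median of -0.13, while 28.1% of all genes fell and 20.4% rose (48.6% in all). Mrpl20, an early-assembling large-subunit protein in bacteria, fell by 0.71 ± 0.10, from 10.84, 11.10 and 10.78 to 10.18, 10.31 and 10.11. Mrps18b fell by 0.62 ± 0.07 and Mrps25 by 0.47 ± 0.08. Against this, Mrpl36 rose by 0.63 ± 0.09, Mrps6 by 0.54 ± 0.10 and Mrps21 by 0.34 ± 0.07. In a fit of only these groups the count was 20 in place of 34. For Mrpl35 and Mrpl47 probe sets were called in opposite directions. At this step the visceral endoderm and liver list (7 of 7 genes measured) went from sample means of 11.93 to 12.87 to 6.75 to 10.55, the heart muscle list (8 of 8) from 5.80 to 6.05 to 12.51 to 12.75, and the red cell list (6 of 7) from 4.79 to 6.85 to 9.56 to 9.85. Their part was not tested, and the stage and the tissue taken cannot be told apart here.

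The step from E8.5 heart tubes to E9.5 ventricles had the most members called, and in 1 direction. Of 76 members 63 rose and 0 fell, while 12.8% of all genes rose and 14.1% fell (26.9% in all). None of the 76 estimates was below 0, that of Mrps2 rounding to 0.0, while 8535 of 18193 genes had an estimate above 0. The median difference was 0.35, against -0.02 for all genes. Mrpl33, a small protein of the large subunit, was 10.29, 10.47 and 10.23 in heart tubes, 11.44, 10.61 and 10.90 in left and 11.36, 10.89 and 11.30 in right ventricles. All 6 ventricle arrays were above the 3 of heart tubes, and the difference was 0.75 ± 0.15 (adjusted p = 4.59e-04 in limma). Mrps33, from 11.11, 11.25 and 11.11 to between 11.61 and 12.10, rose by 0.73 ± 0.10. Mrpl42, which like Mrps33 has no bacterial counterpart, rose by 0.73 ± 0.06, from 11.80, 11.85 and 11.80 to between 12.44 and 12.65. The counts rest on the probe set used for each gene, and for Mrpl15 probe sets were called in opposite directions at this step.

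Members with well-known roles took part to unequal extents. Mrps22, a small-subunit protein found only in mitochondrial ribosomes, was 9.94, 9.97 and 9.92 in heart tubes and 10.49 to 10.73 at E9.5, a rise of 0.65 ± 0.07. Mrpl3, at the core of the large subunit, rose by 0.43 ± 0.08, and Mrpl12, which forms part of the stalk and also binds the mitochondrial RNA polymerase, by 0.49 ± 0.08. Mrps34 rose by 0.26 ± 0.07. The differences of Mrpl44, at 0.10 ± 0.06 (adjusted p = 0.274 in limma), and of Mrps12, a protein of the decoding centre, at 0.03 ± 0.07, did not pass. The smallest estimate was that of Mrps2, below 0.01 with an SE of 0.07.

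Other tissue markers moved with this step. The visceral endoderm and liver list had sample means of 6.75 to 10.55 in heart tubes and 4.97 to 6.47 at E9.5. The foregut and lung list had 7.0 to 7.8 in heart tubes and 4.5 to 5.4 at E9.5. For the red cell list the sample means were 9.56 to 9.85 and 10.71 to 11.03. The heart muscle list was 12.51 to 12.75 in heart tubes and 12.40 to 12.79 at E9.5. Without the arrays set apart the count was again 63 risen and 0 fallen, and with housekeeping scaling 53 and 0. The foregut and lung list was higher in every heart tube array, so that leaving arrays out does not remove this difference. The part of cell makeup was not tested, and the stage and the piece of heart taken cannot be told apart.

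From E9.5 to E12.5 the direction turned: 49 members fell and 0 rose, while 18% of all genes fell and 20.1% rose (38.1% in all). The 2 steps share the E9.5 samples, so that a high value there enters both. The median difference was -0.27, against 0.04 for all genes, and 4 of 76 estimates were above 0. With housekeeping scaling, which moved the median of all genes to 0.16, 33 members fell and 3 rose. Mrpl17, a large-subunit protein at the exit tunnel in bacteria, was 11.23, 10.99 and 10.89 on the left and 11.40, 10.99 and 11.30 on the right at E9.5. At E12.5 it was 10.33, 10.11 and 10.48 on the left and 10.49, 10.32 and 10.74 on the right, with no overlap, a fall of 0.72 ± 0.11 (adjusted p = 1.97e-05 in limma). A second probe set of Mrpl17 was called in the opposite direction, at 0.41 ± 0.14, so that the direction of this gene is uncertain. Mrpl57 fell by 0.66 ± 0.12 and Mrps18b by 0.60 ± 0.07, from 9.68 to 9.90 in single arrays to 9.05 to 9.32.

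Members that had risen at E9.5 took part in the fall to unequal extents. Mrps22 fell by 0.26 ± 0.07, Mrpl3 by 0.27 ± 0.08, Mrpl12 by 0.40 ± 0.08 and Mrps34 by 0.26 ± 0.07. Mrpl33, at -0.33 ± 0.15, and Mrps33, at -0.24 ± 0.10, did not pass the threshold, and Mrpl42 fell by 0.17 ± 0.06. Mrps12, whose level had not risen, fell by 0.35 ± 0.07. At this step the fibroblast list (6 of 6 genes) went from sample means of 7.66 to 8.43 at E9.5 to 10.41 to 11.41 at E12.5. The leukocyte list (6 of 6) went from 5.10 to 5.48 to 7.01 to 7.18. The list of dividing cells (5 of 6) went from 10.67 to 10.88 to 10.28 to 10.37. Their part in the fall was not tested.

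**Figure D3:**
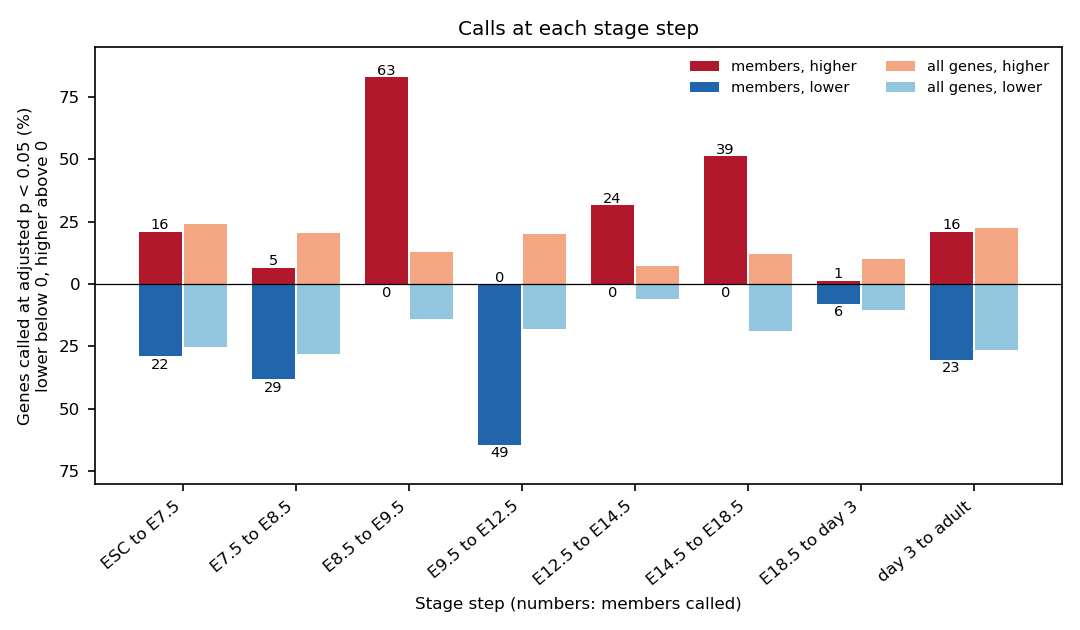
Share of 76 members (dark bars, with the number of members) and of all 18193 genes (light bars) that rose (above 0) or fell (below 0) at each stage step, in percent, at an adjusted p below 0.05 in limma. At E8.5 to E9.5 the bars show 63 members risen and 0 fallen, and at E9.5 to E12.5 0 risen and 49 fallen.

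Later embryonic steps brought rises. From E12.5 to E14.5 24 members rose and 0 fell, with a median of 0.20, while 7.18% of all genes rose and 6.09% fell (13.3% in all). Mrpl33 rose by 0.57 ± 0.15, Mrpl14 by 0.53 ± 0.14 and Mrps16, a small-subunit protein, by 0.47 ± 0.09. Mrps16 was between 11.29 and 11.63 in the 6 arrays at E12.5. At E14.5 it was 11.88, 11.73 and 11.68 on the left and 12.20, 12.01 and 11.98 on the right, all above those of E12.5. The count at this step depended on the ventricle taken, and the difference between ventricles was not tested for this step. With left ventricles alone 2 members rose and 1 fell, with a median of 0.08. With right ventricles alone 43 rose, with a median of 0.31. The count also fell to 10 without replicate 2 of E12.5 or replicate 1 of E14.5, and to 15 without replicate 1 of E12.5. The red cell list had sample means of 10.82 to 11.32 at E12.5 and 8.70 to 11.18 at E14.5, and the fibroblast list 10.41 to 11.41 and 11.07 to 11.81. Their part was not tested.

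From E14.5 to E18.5 39 members rose and 0 fell, with a median of 0.22, while 11.8% of all genes rose and 18.7% fell (30.6% in all). With housekeeping scaling 50 rose and 0 fell. Mrps23, a small-subunit protein without bacterial counterpart, rose most, by 0.85 ± 0.10 (adjusted p = 8.73e-07 in limma). Its 6 arrays at E14.5 were between 9.14 and 10.21 and those at E18.5 between 10.45 and 10.87, with no overlap. Mrpl4, at the wall of the exit tunnel in bacteria, rose by 0.56 ± 0.05, from between 10.19 and 10.52 to between 10.83 and 11.01. Mrpl38 rose by 0.56 ± 0.07 on the probe set used, and its difference was -0.10 when probe sets that can match several transcripts were left out. For Mrps5 probe sets were called in opposite directions at this step. Here the counts by ventricle were the other way round, again without a test of the difference. With left ventricles alone 60 members rose, and with right ventricles alone 14 rose and 2 fell, with medians of 0.43 and 0.06. The steps before and after E14.5, and the comparison of ventricles at E14.5, share the E14.5 samples. Low left or high right values there enter all of these. The left ventricles at E18.5 were uneven, with member medians of 0.34, 0.40 and 0.04, the second of them an array set apart. Other lists moved with this step. The red cell list went from sample means of 8.70 to 11.18 at E14.5 to 6.06 to 7.31 at E18.5, the dividing cell list from 9.93 to 10.51 to 9.54 to 9.93, and the heart muscle list from 12.52 to 12.72 to 12.93 to 13.42. Their part in the rise was not tested. Without the arrays set apart 27 members rose and 0 fell, with a median of 0.16.

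Around birth few members moved. From E18.5 to day 3 1 rose and 6 fell, with a median of 0.02, while 9.94% of all genes rose and 10.3% fell (20.2% in all). Without the arrays set apart 5 rose and 4 fell. Mrpl51 rose by 0.21 ± 0.06, a direction that turned to -0.05 when its probe sets were averaged. Mrpl50 fell by 0.42 ± 0.10, from 9.97 to 10.28 in single arrays to 9.59 to 9.84, Mrpl36 by 0.37 ± 0.09 and Mrps27 by 0.34 ± 0.08. Mrps27, a protein with pentatricopeptide repeats that binds RNA, had its highest group means at E18.5. For Mrpl15 probe sets were called in opposite directions from E18.5 to day 3.

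Between day 3 and the adult calls went both ways, at shares near those of all genes. Of the members 16 rose and 23 fell, while 22.3% of all genes rose and 26.4% fell (48.8% in all). The balance of rises and falls depended on the scaling, since 36 members rose and 11 fell with arrays scaled to housekeeping genes. That scaling moved the median of the members from -0.07 to 0.14 and that of all genes from 0.03 to 0.24. The share of risen among called genes went from 45.8% to 72.5%. Mrpl44, which has the fold of a ribonuclease and lies in the large subunit, was 10.34, 10.27 and 10.28 on the left and 10.27, 10.30 and 10.26 on the right at day 3. In the adult it was 11.21, 11.23 and 11.13 on the left and 11.20, 10.90 and 11.20 on the right, a rise of 0.86 ± 0.06 (adjusted p = 6.05e-11 in limma). The lowest adult array was above the highest of day 3. Mrpl14 rose by 0.76 ± 0.14 and Mrpl28 by 0.49 ± 0.10. In the other direction Mrps5, a core protein of the small subunit, fell by 0.82 ± 0.08, from between 9.09 and 9.43 to between 8.18 and 8.76. Mrpl54 fell by 0.61 ± 0.10 on the probe set used, while its other probe set rose by 0.33 ± 0.11, so that its direction is uncertain. Probe sets of Mrpl15 and Mrpl49 were also called in opposite directions here. Mrpl27, near the peptidyl transferase centre, fell by 0.59 ± 0.09, while Mrps22 fell by 0.55 ± 0.07 and Mrpl3 by 0.47 ± 0.08. The list of dividing cells went from sample means of 9.54 to 9.79 at day 3 to 4.64 to 5.48 in the adult, and the leukocyte list from 7.64 to 7.85 to 8.59 to 9.33. Their part was not tested.

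Over ventricular development as a whole, from E9.5 to the adult, 30 members rose and 23 fell, while 41.6% of all genes rose and 32.9% fell (74.6% in all). Without the arrays set apart 24 rose and 25 fell. With housekeeping scaling 53 rose and 6 fell, and the median of the members went from 0.06 to 0.46 while that of all genes went from 0.13 to 0.52. The place of the member median depended on the genes and samples taken. It was below that of all genes under both scalings, but above it, at 0.06 against -0.20, among genes that passed the filter on low values, and at 0.14 against 0.12 with left ventricles alone. The list of dividing cells went from 10.67 to 10.88 at E9.5 to 4.64 to 5.48 in the adult, and its part was not tested. Mrpl44 rose by 1.24 ± 0.06 (adjusted p = 1.54e-14 in limma) from between 9.85 and 9.97 at E9.5, and 4 of 4 of its probe sets rose, by 0.81 to 1.24. Mrps23 rose by 1.17 ± 0.10, as did its 3 probe sets, by 0.78 to 1.19, and Mrpl4 by 1.08 ± 0.05. Mrps34 rose by 0.84 ± 0.07 and Mrps18a by 0.74 ± 0.09.

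At the other end Mrpl49 fell by 0.91 ± 0.09, from between 10.35 and 10.66 at E9.5 to between 9.43 and 9.68 in the adult, though its second probe set gave 0.12 ± 0.09. Mrpl19, a large-subunit protein with a bacterial counterpart, fell by 0.87 ± 0.07, from between 10.55 and 10.67 to between 9.45 and 10.00. Mrps5 fell by 0.81 ± 0.08, with 4 of its 5 probe sets lower, by 0.68 to 1.15, and the other at 0.08 ± 0.08. Mrps22 fell by 0.68 ± 0.07. Mrpl3 fell by 0.29 ± 0.08, but its difference was 0.11 with housekeeping scaling. Mrpl12, at -0.02 ± 0.08, did not pass and was 0.37 under that scaling, and Mrps12 had 0.03 ± 0.07. For 13 members probe sets were called in opposite directions over this span, Mrpl17, Mrpl3, Mrpl38 and Mrpl54 among them, so that single-gene directions rest on the probe set used.

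**Figure D4:**
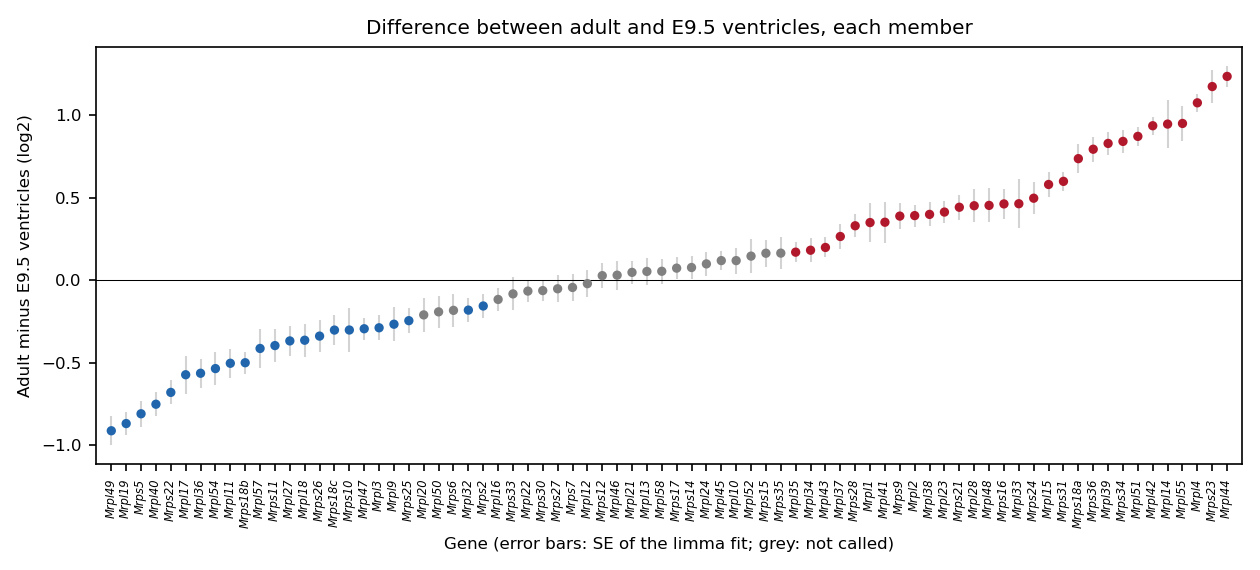
Difference between adult and E9.5 ventricles (log2, vertical axis) of each of 76 members in increasing order, with the SE of the limma fit as bars; red marks 30 that rose, blue 23 that fell and grey those not called. Values run from -0.91 (Mrpl49) to 1.24 (Mrpl44). Of all genes 41.6% rose and 32.9% fell over this span. With arrays scaled to housekeeping genes 53 members rose and 6 fell.

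Likeness to the shared course was measured as Pearson's r over the 15 group means between a member and the median of the other members. The median r was 0.72, and 56 of 76 members were above 0.5. Mrps17 (0.95), Mrps28 (0.95) and Mrpl46 (0.92), named after their values were seen, were nearest to it. As the groups share the normalization of the arrays, r is a description only. It was below 0 for 4 members: Mrps2 (-0.31), Mrps18b (-0.26), Mrpl49 (-0.19) and Mrpl17 (-0.19), and for Mrpl19 it was 0.01. Mrps2, a small-subunit protein with a bacterial counterpart, was 10.12, 10.14 and 10.27 in ESC and between 9.44 and 9.99 in every ventricle array.

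The 3 paralogues of bacterial S18 took different courses, though each belongs to the particle. Mrps18b was 10.62, 10.63 and 10.64 in ESC, 9.48, 9.57 and 9.63 in heart tubes and 9.02 to 9.51 in the adult, and fell from E9.5 to the adult by 0.50 ± 0.07. Mrps18a was 10.28, 10.35 and 10.32 in ESC and 11.02 to 11.71 in the adult, with a rise of 0.74 ± 0.09 from E9.5. Mrps18c was 11.35, 11.51 and 11.41 in ESC and 10.97 to 11.51 in the adult, a fall of 0.30 ± 0.09 from E9.5 that became 0.09 with housekeeping scaling. Differences between paralogues were not tested.

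Among all members Mrpl14 had the widest range of group means, 2.51, followed by Mrps36 (2.06), Mrps21 (2.03) and Mrpl41 (1.83), and each of the 4 was lowest in ESC. Mrpl41 was 9.99, 10.22 and 10.05 in ESC and between 11.53 and 12.05 in the adult. Mrps36 was 9.89, 9.87 and 9.85 in ESC and between 11.80 and 12.06 in the adult. The narrowest ranges were those of Mrps7 (0.46), Mrps14 (0.50), Mrps25 (0.52) and Mrps30 (0.52). Mrps7, a core protein of the small subunit's head, lay between 9.85 and 10.58 in all 45 arrays.

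Genes named for the large and for the small subunit gave like counts. They were grouped by symbol, so that Mrps18a, Mrps30 and Mrps36 count as Mrps. From E8.5 to E9.5 39 of 47 Mrpl and 24 of 29 Mrps genes rose, with medians of 0.38 and 0.32. From E9.5 to E12.5 32 and 17 fell, with medians of -0.31 and -0.26. From E9.5 to the adult 20 Mrpl genes rose and 14 fell, and 10 Mrps genes rose and 9 fell. Beside these, 12.8% of all genes rose at the first of these steps and 18% fell at the second. From E9.5 to the adult 41.6% of all genes rose and 32.9% fell. Split by number, since most proteins of higher number have no bacterial counterpart, 16 of 33 rose and 8 fell over that span, against 14 and 15 of 43 with lower numbers. The difference between subunits or classes was not tested.

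Partner genes of mitochondrial translation were counted at the steps into and out of E9.5. Of all genes 12.8% rose and 14.1% fell at the first, and 20.1% rose and 18% fell at the second. Differences of these lists from the members or from all genes were not tested. Of 13 translation factors, which include the release and rescue factor Mrpl58, itself a member, 10 rose from E8.5 to E9.5 and 0 fell. Gfm1, the elongation factor of translocation, rose by 0.67 ± 0.09 and Tsfm, the exchange factor of Tufm, by 0.53 ± 0.07. From E9.5 to E12.5 9 fell and 1 rose, with Slirp, which stabilises mitochondrial mRNA, falling by 0.82 ± 0.09 and the release factor Mtrf1l by 0.45 ± 0.11. Of 16 aminoacyl-tRNA synthetases 9 rose and 0 fell at the first step, led by Ears2 (0.63 ± 0.09) and Fars2 (0.49 ± 0.06), while at the second 4 rose and 4 fell. Of 22 assembly factors 9 rose, 1 fell and 12 did not pass at the first step, and 1 rose and 10 fell at the second. Mrm1, a methyltransferase of mitochondrial ribosomal RNA, rose by 0.65 ± 0.13 and Mpv17l2 by 0.50 ± 0.10 at the first step. At the second Fastkd2 fell by 0.71 ± 0.10 and Malsu1, which guards the immature large subunit, by 0.49 ± 0.09.

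Of 4 ribosomal proteins of the mitochondrion under other symbols 3 rose and then 3 fell. Gadd45gip1 rose by 0.46 ± 0.10 and Chchd1 by 0.38 ± 0.10, and then Chchd1 fell by 0.60 ± 0.10 and Ptcd3 by 0.53 ± 0.06. Of 9 genes for upkeep and transcription of mitochondrial DNA 2 rose and 1 fell at the first step, with Polg, the DNA polymerase, falling by 1.07 ± 0.11 and the elongation factor Tefm rising by 0.36 ± 0.11. At the second 6 of 9 fell and 0 rose, among them Tefm by 0.73 ± 0.11 and Polg by 0.61 ± 0.11.

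Regulators known for nuclear genes of mitochondria had courses of their own. The coactivator Ppargc1a was 3.24 ± 0.40 (SD, n = 3) in ESC, 3.60 ± 0.07 in E7.5 embryos and 8.83 ± 0.24 in heart tubes. It rose between the last 2 of these (adjusted p = 5.89e-19 in limma), but no size is given, since the lower level is near the bottom of a scale whose lowest value was 2.07. From E9.5 to E12.5 Ppargc1a rose by 0.70 ± 0.15. Its partner receptor Esrra rose by 0.54 ± 0.11 from E8.5 to E9.5 and by 1.3 ± 0.11 from E9.5 to the adult, with a difference of -0.08 ± 0.11 from E9.5 to E12.5. Nrf1 fell by 0.92 ± 0.10 from E7.5 to E8.5 and by 0.30 ± 0.10 from E9.5 to E12.5. Gabpa, the DNA-binding subunit of GABP, rose by 0.37 ± 0.08 from E9.5 to E12.5, and its difference from E9.5 to the adult was -0.02 ± 0.08. Over that span Yy1 fell by 1.02 ± 0.06, Tfam, which packs mitochondrial DNA, fell by 0.27 ± 0.07, and Myc fell by 1.91 ± 0.22.

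Respiratory subunits and cytosolic ribosomal proteins had the same main direction as the members at some steps and not at others. Respiratory complex subunits encoded in the nucleus (77 genes) rose at every embryonic step in larger number than they fell. From E8.5 to E9.5 71 rose and 1 fell, from E12.5 to E14.5 41 rose and 0 fell, and from E14.5 to E18.5 69 rose and 0 fell, steps at which members rose and 0 fell. They also had 62 rises and 1 fall from E7.5 to E8.5, where 5 members rose and 29 fell, and 37 rises and 4 falls from E9.5 to E12.5, where 0 members rose and 49 fell. From E9.5 to the adult 73 of 77 rose and 3 fell, with a median of 0.95. Cytosolic ribosomal proteins (46 genes) had 3 rises and 3 falls from E8.5 to E9.5, where 63 members rose, 1 rise and 17 falls from E9.5 to E12.5, where 49 members fell, and 2 rises and 41 falls from E9.5 to the adult, with a median of -0.77. The differences between lists were not tested.

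Left and right ventricles were compared over all 45 arrays as 15 groups. At E9.5 and E12.5 0 of 76 members passed in limma, where 3.5% and 1.26% of all genes did, and 3 and 2 members had an unadjusted p below 0.05. At day 3 and in the adult 0 members passed and 0 had an unadjusted p below 0.05, while 1 and 3 of all genes passed (0.0055% and 0.0165%). For the mean of 6 stages 0 members passed in limma, against 2.97% of all genes (1.25% higher and 1.72% lower on the left), and 6 had an unadjusted p below 0.05.

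At E14.5 the members stood lower on the left. Of 76 members 19 were lower and 0 higher in the left ventricle, where 4.27% of all genes were lower and 4.24% higher (8.51% in all), and 75 of 76 estimates were below 0, with a median of -0.25 against -0.05 for all genes. Mrps23 was 9.82, 9.14 and 9.45 on the left and 10.21, 10.12 and 10.08 on the right, a difference of -0.67 ± 0.15 (adjusted p = 0.006 in limma). Mrps34 was 11.00, 10.87 and 10.86 against 11.26, 11.26 and 11.33, with -0.37 ± 0.09. Mrpl21 had a difference of -0.44 ± 0.10 and Mrpl44 of -0.31 ± 0.07. These 4 genes were named because their p was the smallest among called members at this stage. Respiratory subunits had 15 of 77 lower and 0 higher, and cytosolic ribosomal proteins 1 of 46 lower and 0 higher.

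These calls rested on few arrays. The count was 2 without left replicate 2, 1 without both arrays set apart at this stage (left replicate 2 and right replicate 1), and ran from 2 to 33 over the 6 arrays left out in turn. Sample means of the red cell list were 9.35 to 11.18 on the left and 8.70 to 9.38 on the right. Those of the visceral endoderm and liver list were 5.66 to 8.99 and 5.29 to 7.07, of the dividing cell list 10.40 to 10.51 and 9.93 to 10.22, of the fibroblast list 11.65 to 11.81 and 11.07 to 11.13, and of the atrial list 11.89 to 12.59 and 12.68 to 13.03. The last 3 lists did not overlap between the ventricles. The part of these in the difference was not tested.

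At E18.5 2 members were higher and 1 lower on the left, where 2.84% of all genes were higher and 2.11% lower (4.95% in all), with a median of 0.09. Mrpl54 was 10.56, 10.62 and 9.98 on the left and 9.86, 9.91 and 10.04 on the right, a difference of 0.45 ± 0.14 (adjusted p = 0.048 in limma) with overlap. Mrps18c had 0.44 ± 0.12 and Mrps2 -0.27 ± 0.08. Left replicate 3 had a member median of 0.04, against 0.34 and 0.40 in the other 2, and without it 26 members passed, while 0 or 1 did without any other array of the stage. With housekeeping scaling 1 was higher and 1 lower. The leukocyte list had sample means of 7.62 to 8.5 on the left and 7.25 to 7.33 on the right, the visceral endoderm and liver list 6.27 to 9.04 and 4.89 to 5.66, and the fibroblast list 11.44 to 11.88 and 11.20 to 11.40, each without overlap, and their part was not tested. The F-test for a left-right difference that depends on the stage passed for 2 members, Mrps18b and Mrps31, against 5.85% of all genes, and for 0 without the arrays set apart or in a fit of the 36 ventricle arrays.

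**Figure D5:**
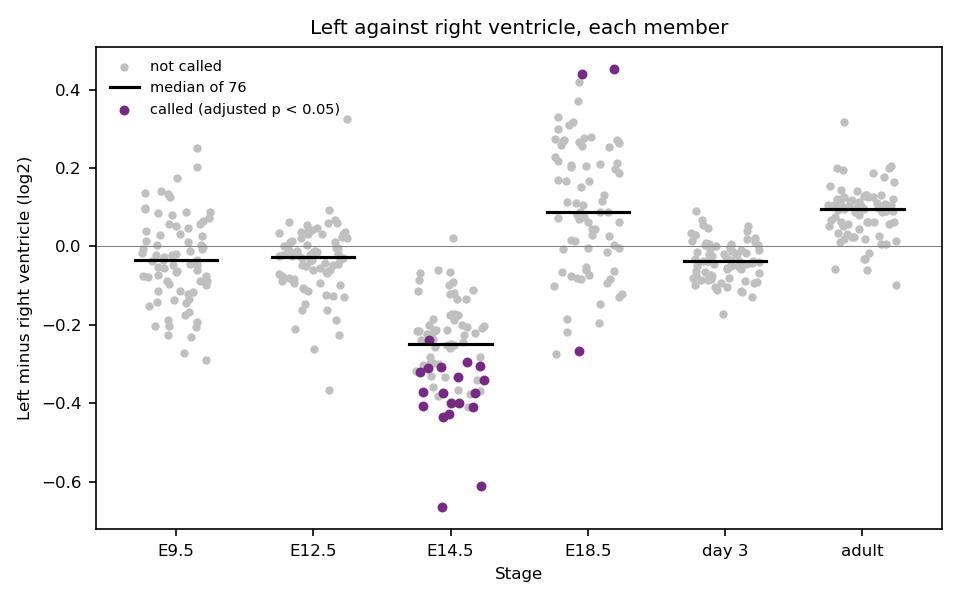
Left minus right ventricle difference (log2, vertical axis) of each of 76 members at 6 stages; purple points passed an adjusted p below 0.05 in limma, grey points did not, and black lines are medians. At E14.5 the median is -0.25 and 19 members passed, all lower on the left, while at E18.5 the points spread from -0.27 to 0.45.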

How the data were processed

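Expression was measured on 45 Affymetrix arrays in 15 groups of 3, grouped by the stage and ventricle in the labels. Per the submitters' processing notes, the deposited log2 values are RMA output (background correction, quantile normalization, probe summary), whose version is not given in the sources used here. Array medians were 5.35 to 5.47, so that a shift common to most genes is lost. RMA understates differences of dim genes, and the number of arrays limits the precision.

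Probe sets with 1 gene symbol in the platform annotation (34945 of 45101) gave 18193 genes, each represented by its probe set of highest mean. Of the members 42 had several probe sets, 156 in all. Tests used limma 3.58.1 under R 4.3.3 (lmFit, eBayes), two-sided, with Benjamini-Hochberg adjustment over all genes. The stage fit had 27 values and 18 residual degrees of freedom, and the fit of 15 groups had 30. P-values measure the spread between replicates of a group. Replicates were pools from E7.5 to E18.5, single hearts at day 3 and in the adult, and cultured cells for ESC. Each fit used a common estimate of a gene's spread over its groups, which mixes these kinds of replicate. Tables used pandas 2.3.3 and NumPy 2.4.6 under Python 3.11.15, and plots Matplotlib 3.10.9. The calculations were tested on simulated data.

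The members, lists and tests were chosen with earlier results of these data known. Genes were named by rule: the 3 largest rises and falls among called members per step, up to 4 called members per ventricle comparison by p, the 4 widest and 4 narrowest ranges, the 5 lowest r, the Mrps18 paralogues, 6 genes and 7 regulators whatever their values, and 2 called genes of each partner list per step described. Deviations of same-numbered ventricles from their group means correlated above 0.1 in every pair only at E12.5, at 0.271, 0.321 and 0.369, and the labels do not state a pairing. Alternatives were other eBayes settings, thresholds, filters, probe set rules, housekeeping scaling, single ventricles, fewer groups, single samples left out and a replicate block. Leaving out the 9 arrays set apart was chosen after seeing the data.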

Additional observations from a re-analysis of the deposited data

Results flagged for a closer look

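The left-right difference of Mrps18b and of Mrps31, both named for the small subunit, differed between stages in the F-test of the 6 ventricle differences (limma, 5 degrees of freedom), with an adjusted p of 0.036 and 0.047. They were 2 of 76 members, where 5.85% of all genes passed this F-test. Both calls were lost without the arrays set apart (adjusted p = 0.138 and 0.0841 in limma) and in the fit of 36 ventricle arrays (0.0626 and 0.0789), and under 2 further settings given with the dependence on the processing. That of Mrps31 was also lost with averaged probe sets and with housekeeping scaling. The left minus right difference of Mrps18b was 0.17 ± 0.11 at E9.5, -0.02 at E12.5, -0.41 at E14.5, -0.27 at E18.5, 0.03 at day 3 and 0.13 in the adult. That of Mrps31 was 0.20 ± 0.08 at E9.5, -0.01 at E12.5, -0.23 at E14.5, -0.20 at E18.5, -0.09 at day 3 and 0.08 in the adult. Of these single differences that of Mrps18b at E14.5 passed (adjusted p = 0.013 in limma).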

How the results depend on the processing

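Counts of members called that moved by more than 1.5 times are given here with the setting. Fits of only the groups compared gave 20 from E7.5 to E8.5 and, for left against right, 2 at E14.5 and 0 at E18.5. A threshold of 0.01 gave 10 from E12.5 to E14.5, and 4 at E14.5, 0 at E18.5 and 0 for the F-test between ventricles. Left ventricles alone gave 3 (E12.5 to E14.5), 60 (E14.5 to E18.5) and 24 (day 3 to adult), and right ventricles alone 43 and 16 for the first 2. Averaged probe sets gave 1 at E9.5, 1 at E12.5 and 1 at E18.5 between ventricles. At E12.5 a trended robust fit, a filter on low values and housekeeping scaling also gave 1 each. Without the arrays set apart the ventricle counts were 2 at E9.5, 1 at E12.5, 1 at E14.5, 0 at E18.5 and 0 for the F-test, which gave 1 with scaling and 0 over the 36 ventricle arrays. With samples left out in turn the stage counts ran 34 to 36, 29 to 33, 52 to 64, 36 to 59, 10 to 28, 28 to 41, 5 to 8 and 31 to 38 in order of stage, and 48 to 52 from E9.5 to the adult. The ventricle counts ran 2 to 33 at E14.5, 0 to 26 at E18.5 and 0 to 28 for the F-test, which was 28 without left replicate 3 of E18.5, 9 without right replicate 3 of the adult and 0 to 4 without any other array. With the replicate block the F-test count was 0 and the E14.5 count 18, and no other count of calls moved by more than 1.5 times. Single directions that reversed were Mrpl38 from E14.5 to E18.5 without shared-target probe sets (-0.10) and Mrpl51 from E18.5 to day 3 with averaged probe sets (-0.049). From E9.5 to the adult Mrps18c (0.092), Mrpl3 (0.11) and Mrpl12 (0.37) reversed with scaling, Mrpl12 also without replicate 1 of E9.5 (0.0092) or of the adult (0.045), with a range of -0.056 to 0.045 over samples left out, and Mrps12 with right ventricles alone (-0.073), without the arrays set apart (-0.10) and without adult replicate 2 (-0.025, range -0.025 to 0.077). Of 1078 alternatives for 61 named differences, 954 kept direction and side of the threshold and 113 lost the threshold. Of 288 alternatives for 16 median differences of the members, 280 moved by less than 0.0952, the SD of the member median between replicates. The other 8 moved further, that from day 3 to the adult with scaling among them (from -0.07 to 0.14). The cause of these changes was not tested, beyond fewer samples where samples were left out. All 76 members passed the filter on low values.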
